A study of Rattus norvegicus with 12 samples.

Results

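Transcripts of 6 genes used as markers of lymphatic endothelium (Mmrn1, Lyve1, Prox1, Pdpn, Flt4 and Reln) were followed in left ventricular tissue of rats with heart failure (HF) after myocardial infarction. The genes were chosen by symbol, and each symbol had 1 row among the 34700 genes of the deposited tables. They were selected on earlier results of these same 12 rats, so the differences of the 6 genes between groups are given as a description, without a test. The lists of further genes used below were also chosen with earlier results of these data known. Their p-values are therefore not independent of that choice. RNA came from male Sprague-Dawley rats, with 3 in each of 4 groups, and was sequenced in bulk after selection of poly(A) RNA. Sham rats had a thread passed around the left anterior descending coronary artery without ligation. HF rats (labelled HF+Sed) had the artery ligated and stayed sedentary. HFE rats (HF+Exe) were ligated and were trained on a treadmill over 8 weeks, on 5 days a week with sessions of 60 min. BAIBA rats (HF+Med, with the treatment given as HF+BAIBA) were ligated and received β-aminoisobutyric acid, a metabolite released by exercising muscle, in a daily gavage of 75 mg/kg for 8 weeks. All rats were 8 weeks old at surgery, and hearts were taken 12 weeks after it. By the main methods, the Sham and HF rats of the gavage experiment received the same volume of water. The supplementary methods instead describe the Sham and HF groups of that experiment as treated with BAIBA at 75 mg/kg a day. They name transcriptome sequencing as a use of hearts from the treadmill experiment, and list biochemical work alone for hearts of the gavage experiment. The labels do not tie the sequenced Sham and HF rats to either experiment. Tissue was cut from the left ventricular anterior wall. The methods put the BAIBA tissue next to the infarct, and the results put both HF and BAIBA tissue there, so the site of sampling and the group cannot be told apart.

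Lymphatic vessels of the heart drain interstitial fluid, proteins and immune cells from the myocardium. Their endothelium is specified by the transcription factor Prox1 and grows in response to Vegfc and Vegfd, which bind the receptor tyrosine kinase Flt4 (VEGFR3). Lyve1 is a hyaluronan receptor of lymphatic capillaries that resident macrophages also carry. Pdpn (podoplanin) is a mucin-type membrane glycoprotein that mesothelial cells and activated fibroblasts also make. Mmrn1 (multimerin 1) is a secreted glycoprotein of lymphatic endothelium and of platelets, and Reln (reelin) is a large secreted glycoprotein made by lymphatic endothelium and best known from the developing brain. Prox1 is also present in cardiomyocytes. In bulk RNA, fewer cells of a type and less RNA per cell cannot be told apart.

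Total counts on genes ranged from 14812541 to 19732588 per rat. All 6 genes were detected in all 12 rats and passed edgeR's filter on low counts in each of the 6 comparisons, with between 41 counts (Reln, Sham rat 1) and 1370 counts (Lyve1, BAIBA rat 1). Rat 1 of the BAIBA group stood apart from the other 11. It had the highest level of 6 of 8 epicardial and mesothelial markers, of 8 of 10 macrophage markers and of 5 of 7 scar fibroblast markers, and the results that rest on it are given with and without it. Cdh5, the cadherin of endothelial junctions, ranged from 126 to 248 CPM (counts scaled to a common library total, with TMM factors over the 12 rats), so endothelial RNA was present in each library. Of the blood endothelial markers, Cldn5, a tight junction protein, had no count in any rat and Robo4 stayed between 0.128 and 1.84 CPM (both named after their values were seen). Pecam1, also on that list, had no row. Whether Cldn5 RNA was absent or was missed in annotation or counting was not tested.

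Levels can be compared between genes per length, on the FPKM scale. Mean FPKM over the 12 rats was 9.35 ± 5.89 (SD, n = 12) for Lyve1, 6.73 ± 1.34 for Prox1, 4.26 ± 0.766 for Flt4, 4.23 ± 4.79 for Pdpn, 3.97 ± 1.79 for Mmrn1 and 0.695 ± 0.262 for Reln. The places of Prox1 above Flt4 and of Mmrn1 above Reln held in 12 of 12 rats on this scale. The other neighbours were not separated beyond their spread. Lyve1 exceeded Prox1 in 6 of 12 rats, Flt4 exceeded Pdpn in 10, and Pdpn exceeded Mmrn1 in 3, since the mean FPKM of Pdpn was set by BAIBA rat 1 (19.2). The ratio of the highest to the lowest rat on the CPM scale was 9.23 for Pdpn, 5.23 for Reln, 5.21 for Lyve1 and 4.76 for Mmrn1, against 1.86 for Prox1 and 1.82 for Flt4.

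**Figure D1:**
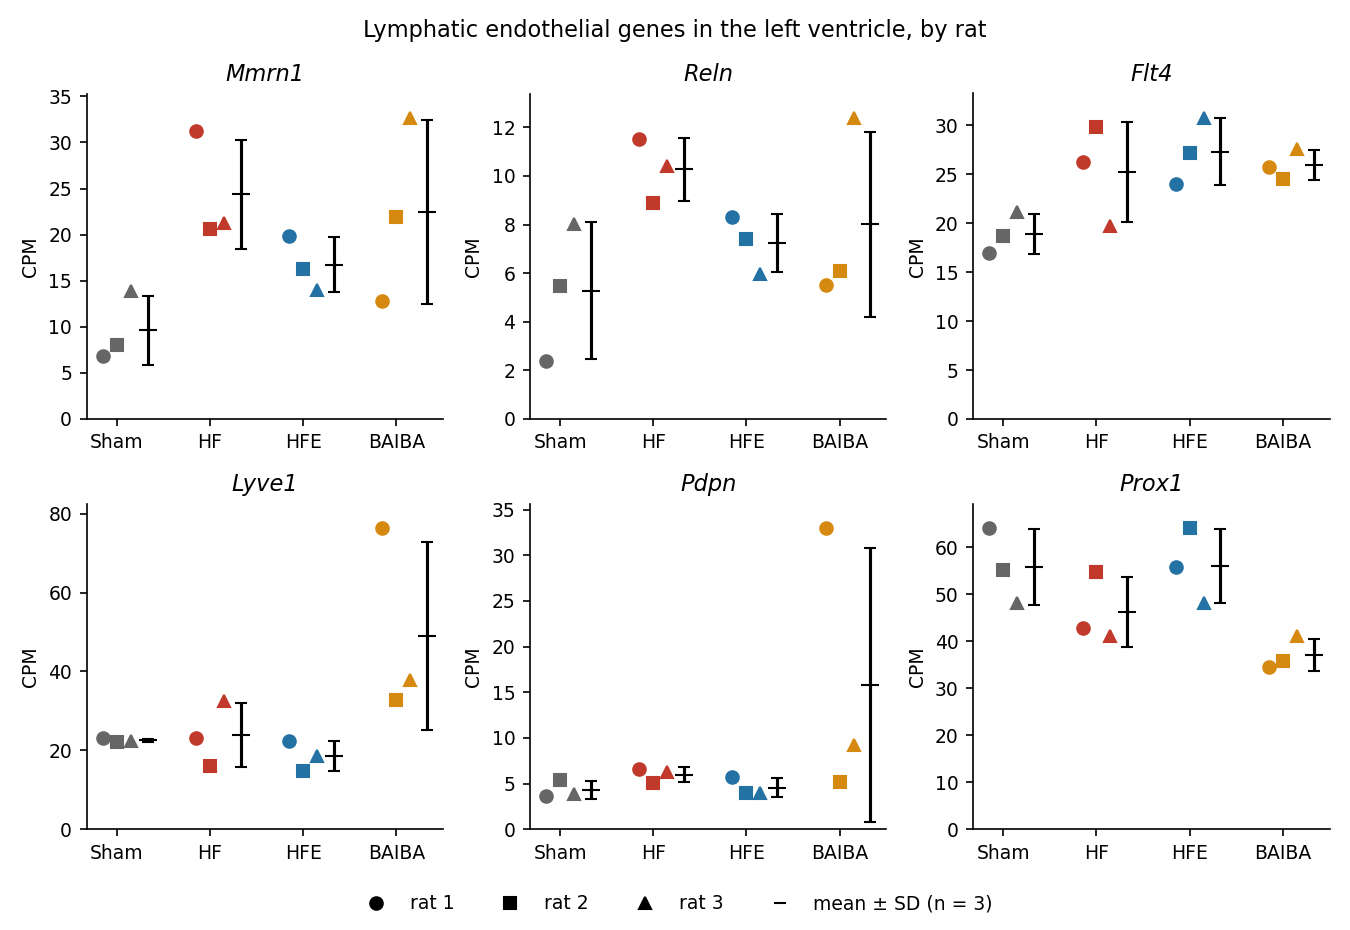
Level of each of the 6 genes (vertical axis, CPM) in the 3 rats of each group (points, with symbols for the rat number) and the group mean with SD (n = 3). Mmrn1 lies at 6.87 to 13.9 CPM in the Sham rats and at 20.6 to 31.2 CPM in the HF rats, while the highest points of Lyve1 (76.4 CPM) and Pdpn (33 CPM) belong to BAIBA rat 1.

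The secreted glycoproteins Mmrn1 and Reln had their lowest group means in the Sham rats and their highest in the HF rats. Mmrn1 was at 6.87, 8.04 and 13.9 CPM in the 3 Sham rats and at 31.2, 20.6 and 21.3 CPM in the HF rats. It was at 19.9, 16.3 and 14 CPM in the HFE rats and at 12.8, 21.9 and 32.7 CPM in the BAIBA rats. Every HF rat lay above every Sham and every HFE rat, and the BAIBA rats spread from below the lowest HFE rat to above the highest HF rat. Against Sham, the log2 fold change of Mmrn1 was 1.35 (SE 0.29) in HF, 0.81 (SE 0.28) in HFE and 1.23 (SE 0.40) in BAIBA rats. In HFE against HF it was -0.54 (SE 0.20), and -0.32 without HF rat 1. For Reln, the Sham rats had 2.37, 5.45 and 8.01 CPM and the HF rats had 11.5, 8.9 and 10.4 CPM. The HFE rats had 8.32, 7.41 and 5.95 CPM of Reln and the BAIBA rats had 5.52, 6.09 and 12.4 CPM. As for Mmrn1, the HF rats were above the Sham and HFE rats without overlap, and BAIBA rat 3 was the highest of the 12. Reln had a log2 fold change of 0.97 (SE 0.39) in HF against Sham and -0.51 (SE 0.18) in HFE against HF. Without Sham rat 1 the first of these was 0.62. These comparisons share rats, so their values are not independent of each other. Between BAIBA and HF, whose rats overlapped for both genes, the log2 fold changes were -0.12 (SE 0.34) for Mmrn1 and -0.37 (SE 0.32) for Reln. Mmrn1 is also a platelet protein, and the summed level of 6 platelet and megakaryocyte markers was 8.8 to 9.27 CPM in the Sham, 9.4 to 10.7 in the HF, 10.5 to 11.8 in the HFE and 9.65 to 15.6 in the BAIBA rats. In counts per rat, Pf4 was at 46 to 190, Itga2b at 30 to 52, Gp1ba at 18 to 62, Gp9 at 3 to 15, Ppbp at 0 to 6 and Gp6 at 0 to 4. Across the 12 rats, log2 CPM of Mmrn1 had a Pearson r of -0.000632 with the log2 platelet sum (rho = 0.119), which was 0.25 without BAIBA rat 1, -0.545 without the 2 rats farthest from the median and -0.837 after group means were removed. The part of platelet RNA in the Mmrn1 values was not tested.

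Mmrn1 and Reln also varied together across single rats. Over the 12 rats, log2 CPM of the pair gave r = 0.876 and Spearman's rho = 0.867, and r was 0.829 after the group means were removed and 0.809 without the 2 rats farthest from the median of Mmrn1. All correlations are descriptions over libraries that share their scaling. Of the 15 pairs among the 6 genes, Lyve1 and Pdpn reached the same r of 0.876, but with rho = 0.622. Without BAIBA rat 1 their r was 0.646, and without the 2 rats farthest from the median of Lyve1 it was 0.446, so this value rests largely on those rats. Lyve1 and Prox1 were related in the opposite direction (r = -0.796, rho = -0.762, and r = -0.753 without BAIBA rat 1). Averaged over all 15 pairs, r was 0.06, so the 6 genes did not move as 1 group.

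**Figure D2:**
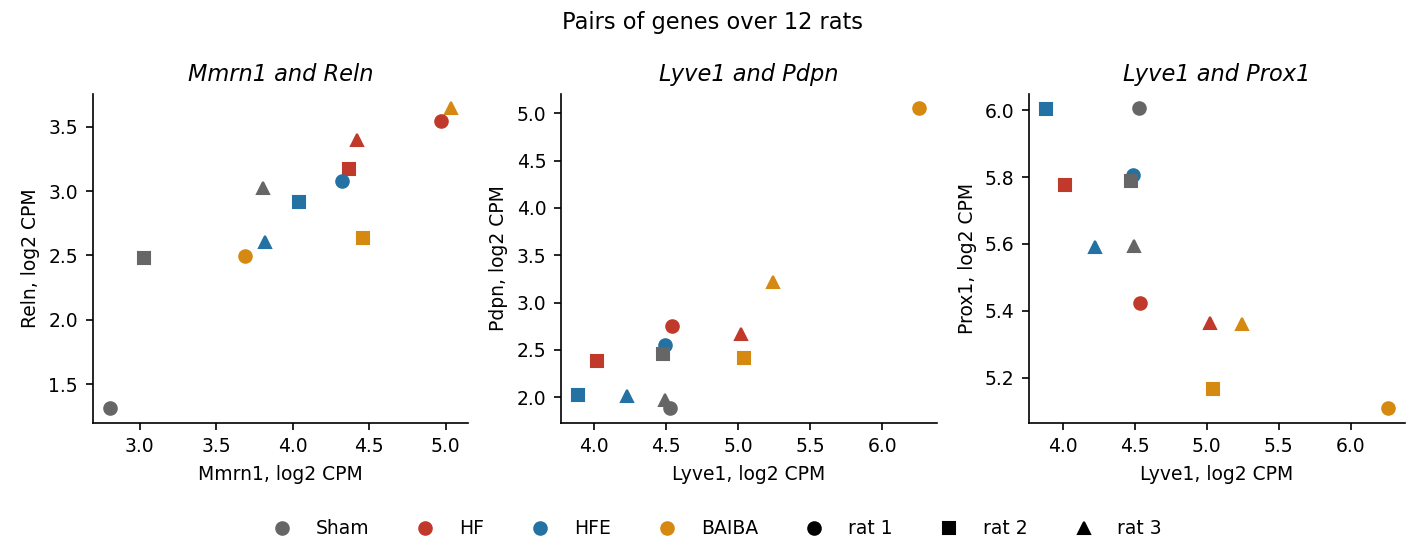
Log2 CPM of 3 pairs of genes in the 12 rats (colours for groups, symbols for the rat number). Mmrn1 and Reln rise together through all groups (r = 0.876), Lyve1 and Pdpn are drawn out by BAIBA rat 1 at the upper right, and Lyve1 and Prox1 run in opposite directions (r = -0.796).

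The promoters of these pairs are shown because their transcripts varied together across rats. RefSeq promoters on GRCr8, from 250 bases before to 50 bases after the gene's start, were on hand for 5 of the 6 genes, with Prox1 not among them. They were searched on both strands for the ETS words AGGAAG and CGGAAG (which share GGAAG), the SOX word AACAAT, the COUP-TF half-site AGGTCA, the GATA word AGATAA and the TATA box TATAAA. Capitals mark the matches, and no matches overlap in these windows.
Mmrn1, chr4:91233166-91233465, plus strand: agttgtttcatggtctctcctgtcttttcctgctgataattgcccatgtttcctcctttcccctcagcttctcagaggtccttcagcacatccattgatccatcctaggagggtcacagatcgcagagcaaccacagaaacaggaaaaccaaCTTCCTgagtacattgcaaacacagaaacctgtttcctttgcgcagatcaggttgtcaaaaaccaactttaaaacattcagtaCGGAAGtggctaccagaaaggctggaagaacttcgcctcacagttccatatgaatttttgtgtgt
Reln, chr4:13628318-13628617, plus strand: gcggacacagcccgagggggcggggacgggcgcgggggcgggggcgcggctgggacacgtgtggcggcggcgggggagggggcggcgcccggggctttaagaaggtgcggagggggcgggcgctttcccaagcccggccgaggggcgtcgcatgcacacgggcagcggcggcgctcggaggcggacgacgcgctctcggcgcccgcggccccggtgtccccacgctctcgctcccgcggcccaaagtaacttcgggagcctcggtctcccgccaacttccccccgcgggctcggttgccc
Lyve1, chr1:174410928-174411227, minus strand: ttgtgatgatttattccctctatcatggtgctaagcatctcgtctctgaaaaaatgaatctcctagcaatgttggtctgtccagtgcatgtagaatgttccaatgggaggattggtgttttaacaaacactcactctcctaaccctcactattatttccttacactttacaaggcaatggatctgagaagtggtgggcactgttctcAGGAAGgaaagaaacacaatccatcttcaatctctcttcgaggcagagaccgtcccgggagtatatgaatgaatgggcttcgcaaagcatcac
Pdpn, chr5:160918910-160919209, minus strand: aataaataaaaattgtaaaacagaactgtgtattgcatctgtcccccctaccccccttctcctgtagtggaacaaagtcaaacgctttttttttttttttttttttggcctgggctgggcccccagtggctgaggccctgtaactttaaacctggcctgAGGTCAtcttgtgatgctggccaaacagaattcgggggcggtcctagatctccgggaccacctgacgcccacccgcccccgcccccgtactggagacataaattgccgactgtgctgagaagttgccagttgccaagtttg
The Mmrn1 promoter holds 2 ETS words, which begin at positions -98 and -15 from the gene's start. The Lyve1 promoter holds 1 at -43 and the Pdpn promoter holds 1 COUP-TF half-site at -91. None of the words searched is in the Reln window. Of 33469 RefSeq promoters of this length, 45.5% hold an ETS word and 16.2% the COUP-TF half-site, so these matches are common. The SOX, GATA and TATA words, at 11.7%, 11.6% and 14.2% of all promoters, are in none of the 4 windows shown. The Flt4 promoter, not shown, holds 1 ETS word at -228. In base composition the co-varying pair Mmrn1 and Reln lay far apart, with 45% GC and 4 CpG dinucleotides in Mmrn1 against 79% and 47 in Reln, where the median promoter has 51.7% GC and 7 CpG. Lyve1 had 43.3% GC, Pdpn 51% and Flt4 75%.

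Flt4, the receptor for Vegfc and Vegfd, was lowest in the Sham rats, at 17, 18.7 and 21.1 CPM. The HF rats had 26.3, 29.8 and 19.7 CPM, the HFE rats 24, 27.2 and 30.8 CPM, and the BAIBA rats 25.8, 24.5 and 27.6 CPM. All HFE and all BAIBA rats were above all Sham rats, and HF rat 3 fell inside the Sham range. Against Sham, Flt4 had log2 fold changes of 0.41 (SE 0.17) for HF, 0.54 (SE 0.13) for HFE and 0.46 (SE 0.12) for BAIBA, and the value for HF was 0.27 without HF rat 2. These comparisons share the Sham rats. Among the 3 ligated groups the log2 fold changes of Flt4 were between -0.07 (BAIBA against HFE) and 0.11 (HFE against HF), with overlapping rats. The summed level of 13 blood endothelial markers was 1590 to 1940 CPM in Sham, 1850 to 2420 in HF, 1660 to 2060 in HFE and 1460 to 2380 in BAIBA rats. Fabp4 and Aqp1 had the highest means, at 376 and 478 CPM in Sham and 504 and 668 CPM in HF rats. Eng was at 168 and 176 CPM in Sham and HF, Emcn at 40.6 and 37, and Vwf at 237 and 204. Of 11 markers tested, 8 had a log2 fold change above 0 in HF against Sham. The part of this sum in the Flt4 values was not tested.

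Prox1, the transcription factor of lymphatic identity, had its lowest group mean in the BAIBA rats. It was at 64.1, 55.1 and 48.1 CPM in the Sham rats, at 42.8, 54.7 and 41 CPM in the HF rats and at 55.8, 64 and 48.1 CPM in the HFE rats. The BAIBA rats had 34.4, 35.8 and 41 CPM, below all Sham, HF and HFE rats. The margin to HF was narrow, since HF rat 3 and BAIBA rat 3 are both 41 CPM when rounded. In BAIBA rats Prox1 had log2 fold changes of -0.58 (SE 0.13) against Sham, -0.59 (SE 0.13) against HFE and -0.32 (SE 0.14) against HF, the last of them -0.18 without HF rat 2. Prox1 thus ran against Mmrn1 and Flt4, whose BAIBA values lay above Sham on average. Cardiomyocytes also transcribe Prox1. The summed level of 7 cardiomyocyte markers was 43600 to 45500 CPM in Sham, 36800 to 38200 in HF, 36800 to 42900 in HFE and 36400 to 44100 in BAIBA rats. Within this sum Myh6 differed most between Sham and HF, with group means of 18700 and 12200 CPM. The Sham and HF means were 4020 and 3410 CPM for Pln, 1290 and 1100 for Ryr2, and 6740 and 6720 for Tnnt2. They were 2860 and 2770 CPM for Tnni3, 4010 and 3890 for Myl3, and 6830 and 7230 for Actc1. The correlation of Prox1 with that sum over 12 rats was r = 0.341 (rho = 0.42). Its part in the Prox1 values was not tested.

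Lyve1 and Pdpn, the membrane glycoproteins of lymphatic capillaries, had their highest levels in the BAIBA group. Lyve1 was at 23, 22.2 and 22.4 CPM in the Sham rats, at 23.1, 16.1 and 32.4 CPM in the HF rats and at 22.4, 14.7 and 18.6 CPM in the HFE rats. The BAIBA rats had 76.4, 32.8 and 37.7 CPM, all above the other 9 rats. The margin to HF rat 3 was 32.8 against 32.4 CPM. For Lyve1 the BAIBA rats had log2 fold changes of 1.04 (SE 0.40) against HF, 1.41 (SE 0.36) against HFE and 1.13 (SE 0.32) against Sham. Without BAIBA rat 1 these were 0.57, 0.92 and 0.65. Pdpn was at 3.58, 5.38 and 3.81 CPM in the Sham rats, 6.59, 5.09 and 6.25 CPM in the HF rats and 5.73, 3.95 and 3.93 CPM in the HFE rats. The BAIBA rats had 33, 5.2 and 9.17 CPM, so BAIBA rat 2 lay among the rats of the other groups. For Pdpn the log2 fold changes of BAIBA were 1.40 (SE 0.68) against HF, 1.81 (SE 0.72) against HFE and 1.91 (SE 0.72) against Sham. They were 0.27, 0.66 and 0.76 without BAIBA rat 1, which thus decided most of their size. In HF against Sham it was 0.49 (SE 0.22), with overlapping rats.

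Lyve1 and Pdpn are also carried by other cells, whose markers are given here beside them. The summed level of 10 macrophage markers was 227, 200 and 215 CPM in the Sham rats, 172, 184 and 300 in the HF rats, 171, 132 and 159 in the HFE rats and 356, 185 and 230 in the BAIBA rats. The 2 rats with the highest macrophage sum, BAIBA rat 1 and HF rat 3, were the highest in Lyve1 among the BAIBA and HF rats respectively. BAIBA rat 2, with Lyve1 at 32.8 CPM, had a macrophage sum of 185 CPM, below all Sham rats. Over the 12 rats Lyve1 and the log2 macrophage sum gave r = 0.837 (rho = 0.762, r = 0.697 without BAIBA rat 1, and r = 0.686 without the 2 rats farthest from the median). Mrc1, a mannose receptor of resident macrophages, had 51.6 CPM in BAIBA rat 1 and between 14.1 and 37.7 CPM in the other 11 rats. At an unadjusted p under 0.05 by edgeR, 6 of the 10 macrophage markers were higher in BAIBA than in HFE rats, where 9.57% of all genes had such a p, and 8 were lower in HFE than in Sham rats, where 11.2% had. After adjustment edgeR called none of the 10 in any comparison. DESeq2 called 3 in BAIBA against HFE (Cd163, C1qb and Mrc1), where it called 1.11% of all genes. In HFE against Sham it called 0 of the 10 and 0.461% of all genes. Without BAIBA rat 1, the count against HFE at an unadjusted p was 4, and DESeq2 called Cd163 alone. Cd163, a scavenger receptor of resident macrophages, was at 24.9 ± 1.9 CPM in BAIBA and 10.4 ± 2.91 CPM in HFE rats (log2 fold change 1.25, SE 0.19, adjusted p = 0.0986 by edgeR). With the replicate number as a block, edgeR called Cd163 (adjusted p = 0.0487) in BAIBA against HFE, where it called 0.216% of all genes (32 genes, against 12 without the block), and 8 markers had an unadjusted p under 0.05. The blocked fit called 0 of the 10 without BAIBA rat 1. The summed level of 8 epicardial and mesothelial markers was 116, 38.2 and 60.4 CPM in the BAIBA rats and 32.4 to 42.1 CPM in the other groups. Outside the BAIBA group, Wt1, Tcf21 and Tbx18 had the highest means of the 8. Group means of Wt1 were 17.7 CPM in Sham, 19.9 in HF, 20.7 in HFE and 19.8 in BAIBA rats. In the same order they were 10.7, 7.3, 7.71 and 10.3 CPM for Tcf21 and 6.57, 7.58, 7.55 and 8.11 CPM for Tbx18. Msln (mesothelin), a surface protein of mesothelium, had 36.1 CPM in BAIBA rat 1 and 10.3 CPM in BAIBA rat 3, the 2 rats with the highest Pdpn. It was at 5.33 CPM in HF rat 1, which had the highest Pdpn of the HF group, and at 2.5 CPM or less in the other 9 rats. The match did not hold in Sham, where rat 3 had the most Msln (2.5 CPM) and rat 2 the most Pdpn (5.38 CPM), and HFE rat 1 had 5.73 CPM of Pdpn with Msln at 0.0666 CPM. Among these markers edgeR called Msln in BAIBA against HFE under the replicate block (adjusted p = 0.00131) and not without it (adjusted p = 0.277). Msln had 1, 0 and 0 counts in the HFE rats, so its blocked log2 fold change of 9.06 was set by values at the floor. In that comparison DESeq2 called Msln, Upk1b and Upk3b. Without BAIBA rat 1, the block kept Msln and DESeq2 called Msln and Upk1b. DESeq2 also called 1 of the 8 markers in HFE against Sham. Pdpn and the log2 sum of the 8 epicardial and mesothelial markers gave r = 0.937 over the 12 rats, with rho = 0.643. This r was 0.683 without BAIBA rat 1 and 0.254 without the 2 rats farthest from the median. The summed level of 7 scar fibroblast markers was 1140, 499 and 732 CPM in the BAIBA rats, against 715 to 835 in Sham, 505 to 664 in HF and 526 to 678 in HFE rats. Its r with Pdpn was 0.634 (rho = 0.175), and 0.0262 without BAIBA rat 1. The part of these cells in the Lyve1 and Pdpn values was not tested.

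**Figure D3:**
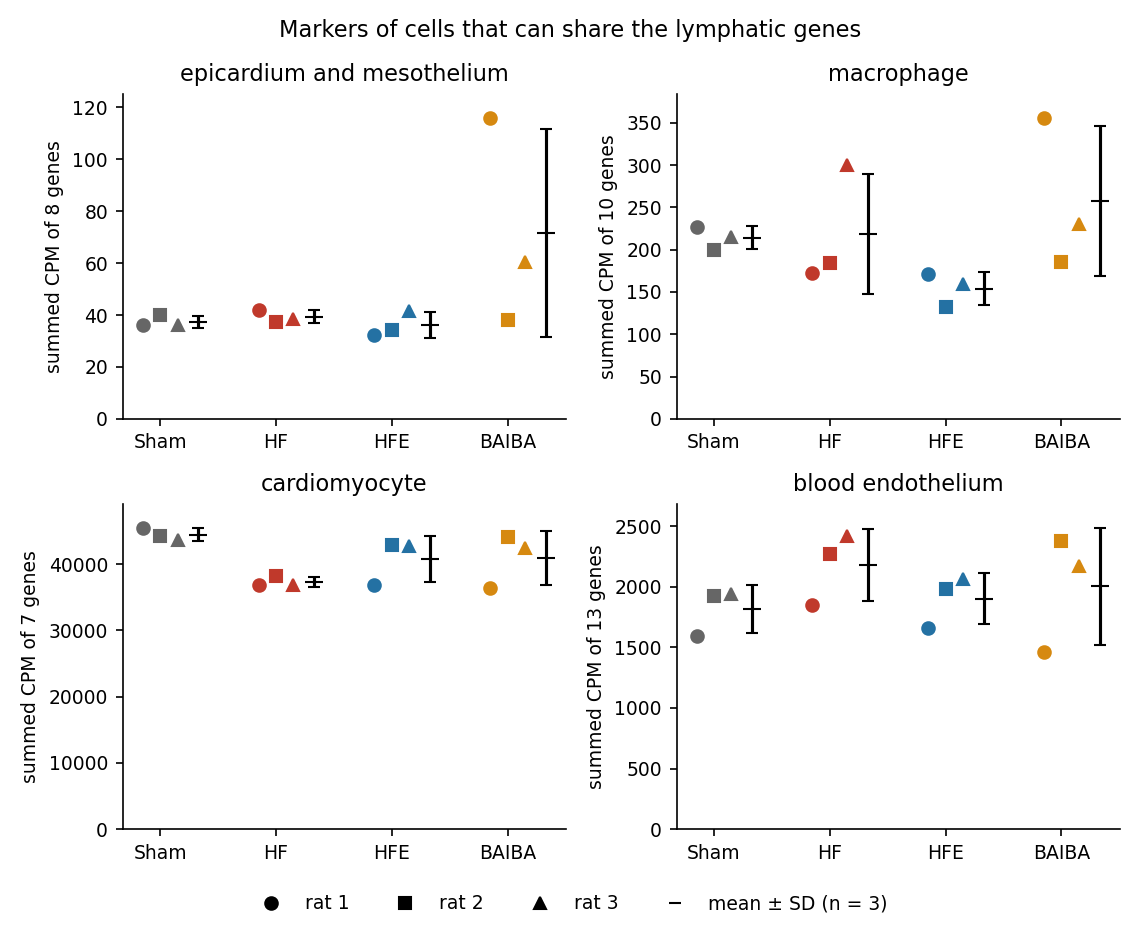
Summed CPM (vertical axis) of markers of epicardium and mesothelium, macrophages, cardiomyocytes and blood endothelium in each rat, with the group mean and SD (n = 3). BAIBA rat 1 has the highest epicardial and mesothelial (116 CPM) and macrophage (356 CPM) sums of the 12 rats, and HF rat 3 the second highest macrophage sum (300 CPM).

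Read against all genes, the number of the 6 genes with separated groups was 2 in HF against Sham, 2 in HFE against HF, 2 in BAIBA against HF, 2 in BAIBA against HFE, 3 in BAIBA against Sham and 2 in HFE against Sham. Among all genes tested, the groups did not overlap for 11.8%, 14.4%, 11.4%, 15.5%, 12.7% and 17.7% in these comparisons, in the same order. The 6 genes were chosen with these values known, and nothing is read from the counts. The medians of the 6 log2 fold changes were 0.45, -0.38, -0.04, 0.28, 0.87 and 0.28 in the order above, beside medians of -0.01 to 0.01 over all genes tested.

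**Figure D4:**
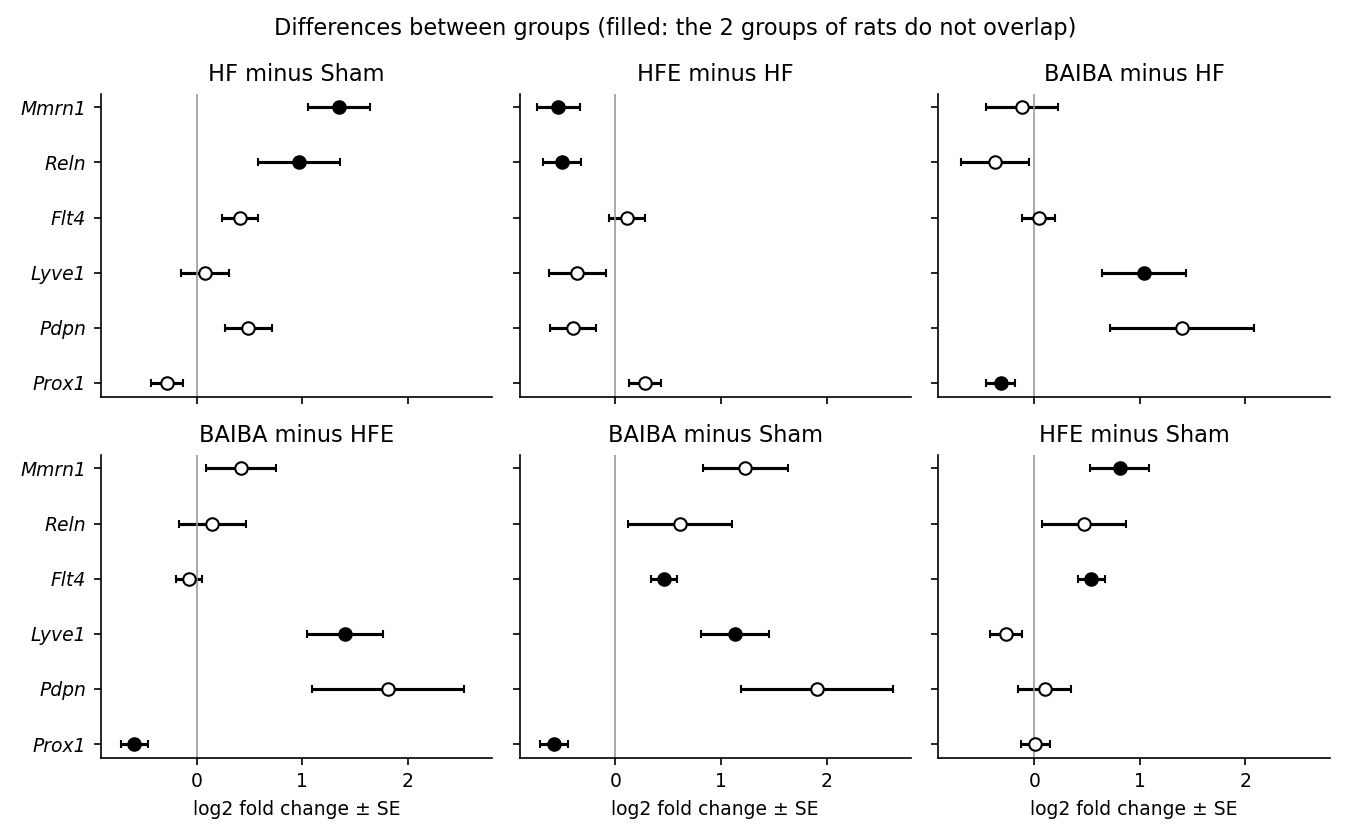
Log2 fold change (horizontal axis) with SE for the 6 genes in the 6 comparisons, which share groups of rats. Filled points mark genes whose 2 groups of rats did not overlap, such as Mmrn1 in HF minus Sham (1.35) and Lyve1 (1.41) and Prox1 (-0.59) in BAIBA minus HFE, and open points mark overlapping groups, such as Pdpn in BAIBA minus Sham (1.91).

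The wider lymphatic programme was examined in 49 further genes (ligands and their processing, receptors and signalling, transcription factors, and surface, junction and secreted proteins), of which 48 had a row. Ccbe1, on the list of ligands and their processing, had none. The list was chosen with earlier results known, so its p-values are not independent of that choice. A gene was called at a Benjamini-Hochberg adjusted p under 0.05 with an absolute log2 fold change over 1. By edgeR's quasi-likelihood test, 0 of the list were called in any comparison, where 0% of all genes were called in HF against Sham, HFE against HF, BAIBA against HF and HFE against Sham, 0.0808% in BAIBA against HFE and 0.0402% in BAIBA against Sham. At an unadjusted p under 0.05 by edgeR, 4 were higher and 2 lower of 41 tested in HF against Sham, 2 and 1 of 42 in HFE against HF, 0 and 1 of 42 in BAIBA against HF, 6 and 7 of 43 in BAIBA against HFE, 6 and 4 of 44 in BAIBA against Sham, and 7 and 2 of 43 in HFE against Sham. The share of all genes with such a p was 6%, 7.62%, 5.55%, 9.57%, 7.41% and 11.2% in that order. DESeq2 called 1 of the list in BAIBA against Sham and 1 in HFE against Sham, Ccl21 both times, where it called 0.443% and 0.461% of all genes. It called none of the list in HF against Sham (0.152% of all genes), HFE against HF (0.121%), BAIBA against HF (0.139%) and BAIBA against HFE (1.11%). With the replicate block, edgeR called 0 of the list in BAIBA against HFE, and 8 were higher and 8 lower at an unadjusted p. The median log2 fold change of the list was between -0.07 and 0.16. Without BAIBA rat 1, edgeR again called none of the list in the 3 comparisons with BAIBA, and the counts at an unadjusted p were 2 higher and 1 lower of 42 tested against HF, 5 and 6 of 44 against HFE, and 9 and 4 of 44 against Sham. The share of all genes with such a p was then 4.78%, 10.69% and 8.45%.

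Of the ligands, Vegfc was highest in the exercised rats. It was at 10.7, 10.9 and 9.24 CPM in the HFE rats, against 5.54, 7.2 and 7.29 in the Sham, 6.94, 7.61 and 8.31 in the HF and 6.92, 8.21 and 5.85 in the BAIBA rats. All HFE rats lay above all the others, but no difference of Vegfc passed edgeR's test after adjustment. Its log2 fold change was 0.63 (SE 0.16, adjusted p = 0.289 by edgeR) in HFE against Sham, 0.43 (SE 0.15, adjusted p = 0.627) in HFE against HF and -0.55 (SE 0.18, adjusted p = 0.357) in BAIBA against HFE. Vegfd, the other ligand of Flt4, had its lowest group mean in the HFE rats (9.52 ± 2.83 CPM, SD, n = 3) and its highest in the BAIBA rats (14.8 ± 3.33 CPM). In BAIBA against HFE, Vegfd had a log2 fold change of 0.64 (SE 0.26, adjusted p = 0.484 by edgeR). Adm, the peptide adrenomedullin, was at 9.28 to 10.8 CPM as a group mean. The protease gene Adamts14 was at 2.49 ± 0.359 CPM in HFE and 1.32 ± 0.282 CPM in HF rats, with a log2 fold change of 0.91 (SE 0.30, adjusted p = 0.627 by edgeR).

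Among receptors, Nrp2, the co-receptor of Flt4 for Vegfc, also had its highest group mean in the HFE rats. It was at 66.8, 84.2 and 74.4 CPM in the HFE rats and at 40.4, 54.8 and 55.2 CPM in the BAIBA rats, which did not overlap. The log2 fold change of Nrp2 in BAIBA against HFE was -0.58 (SE 0.15, adjusted p = 0.229 by edgeR). Without the replicate block this was the lowest adjusted p of the list in that comparison. With the block, edgeR gave an adjusted p of 0.0771 for Nrp2 and a lower one of 0.0554 for Emilin1. Kdr (VEGFR2) at -0.50 (SE 0.21, adjusted p = 0.501) and Tie1, an orphan endothelial receptor kinase, at -0.42 (SE 0.11, adjusted p = 0.263) had log2 fold changes of the same sign in BAIBA against HFE by edgeR. Without BAIBA rat 1 these 3 log2 fold changes were -0.45, -0.32 and -0.32. Not all genes of this part of the list went down, as 5 of the 15 had a log2 fold change above 0 in BAIBA against HFE. In that comparison 5 genes were lower and 1 higher without overlap. The higher one was Ramp2, at 16.1 to 24.1 CPM in BAIBA and 13.9 to 15.6 CPM in HFE rats. Tek was at 93.2 ± 19.7 CPM in BAIBA and 88.7 ± 13.9 CPM in HFE rats. Efnb2, a ligand of vessel remodelling, was at 58.7 ± 7.7 CPM in HFE and 44.5 ± 2.52 CPM in Sham rats (log2 fold change 0.40, SE 0.11, adjusted p = 0.294 by edgeR). Itga9, an integrin of lymphatic valves, was at 22.7 ± 2.79 CPM in BAIBA and 30.5 ± 4.47 CPM in Sham rats (log2 fold change -0.42, SE 0.15, adjusted p = 0.624 by edgeR).

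Among the transcription factors, Nr2f2 (COUP-TFII), a partner of Prox1, was at 15, 20.8 and 19.3 CPM in the BAIBA rats and at 11.7, 12.6 and 12 CPM in the Sham rats. These groups did not overlap, and the log2 fold change of Nr2f2 was 0.61 (SE 0.14, adjusted p = 0.386 by edgeR), or 0.73 (adjusted p = 0.131) without BAIBA rat 1. Sox18, which induces Prox1 in the embryo, had its lowest group mean in the Sham rats (17.8 ± 1.5 CPM) and log2 fold changes of 0.50 (SE 0.13, adjusted p = 0.292 by edgeR) in HFE and 0.62 (SE 0.23, adjusted p = 0.805) in HF against Sham. Foxc1, a forkhead factor of vessel growth, was at 6.99 ± 1.2 CPM in Sham rats and at 4.46 to 4.76 CPM as a mean in the ligated groups. Klf2, a flow-induced factor, had a log2 fold change of 0.57 (SE 0.13, adjusted p = 0.374 by edgeR) and Gata2, a factor of lymphatic valves, one of 0.47 (SE 0.14, adjusted p = 0.548) in BAIBA against Sham. Tbx1 was low, at 0.357 ± 0.0595 CPM in Sham and 1.45 ± 0.68 CPM in BAIBA rats (log2 fold change 2.02, SE 0.47, adjusted p = 0.374 by edgeR).

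Ccl21, the chemokine by which lymphatic endothelium attracts dendritic cells and T cells, had a lower mean in the Sham rats than in each ligated group. It was at 12.6, 24.6 and 22.4 CPM in the Sham rats and at 70.1, 50.8 and 23.4 CPM in the HF rats. The HFE rats had 69.6, 41.8 and 33.1 CPM and the BAIBA rats had 71.2, 34.1 and 62.3 CPM. All HFE and BAIBA rats were above all Sham rats, and HF rat 3 was within the Sham range, as it was for Flt4. The log2 fold change of Ccl21 against Sham was 1.28 (SE 0.45, adjusted p = 0.805 by edgeR) for HF, 1.29 (SE 0.37, adjusted p = 0.352) for HFE and 1.5 (SE 0.35, adjusted p = 0.435) for BAIBA. Without BAIBA rat 1, the edgeR log2 fold change of Ccl21 in BAIBA against Sham was 1.29 (SE 0.39, adjusted p = 0.495). With all rats, DESeq2 gave Ccl21 an adjusted p of 0.00345 for HFE and 0.000217 for BAIBA against Sham, and 0.0901 for HF against Sham. Ackr4, a scavenging receptor for Ccl21, was at 2.45 ± 0.328 CPM in HFE and 6.2 ± 3.51 CPM in Sham rats (log2 fold change -1.33, SE 0.41, adjusted p = 0.336 by edgeR). Ackr2, a scavenger of inflammatory chemokines, was at 3.87 ± 1.45 CPM in HF and 1.7 ± 0.461 CPM in Sham rats (log2 fold change 1.18, SE 0.36, adjusted p = 0.805 by edgeR). Emilin1, a matrix glycoprotein of lymphatic anchoring filaments, was at 24.3 ± 6.48 CPM in BAIBA and 41 ± 8.31 CPM in HFE rats (log2 fold change -0.75, SE 0.22, adjusted p = 0.305 by edgeR). Without BAIBA rat 1 that log2 fold change was -1 (adjusted p = 0.0986).

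**Figure D5:**
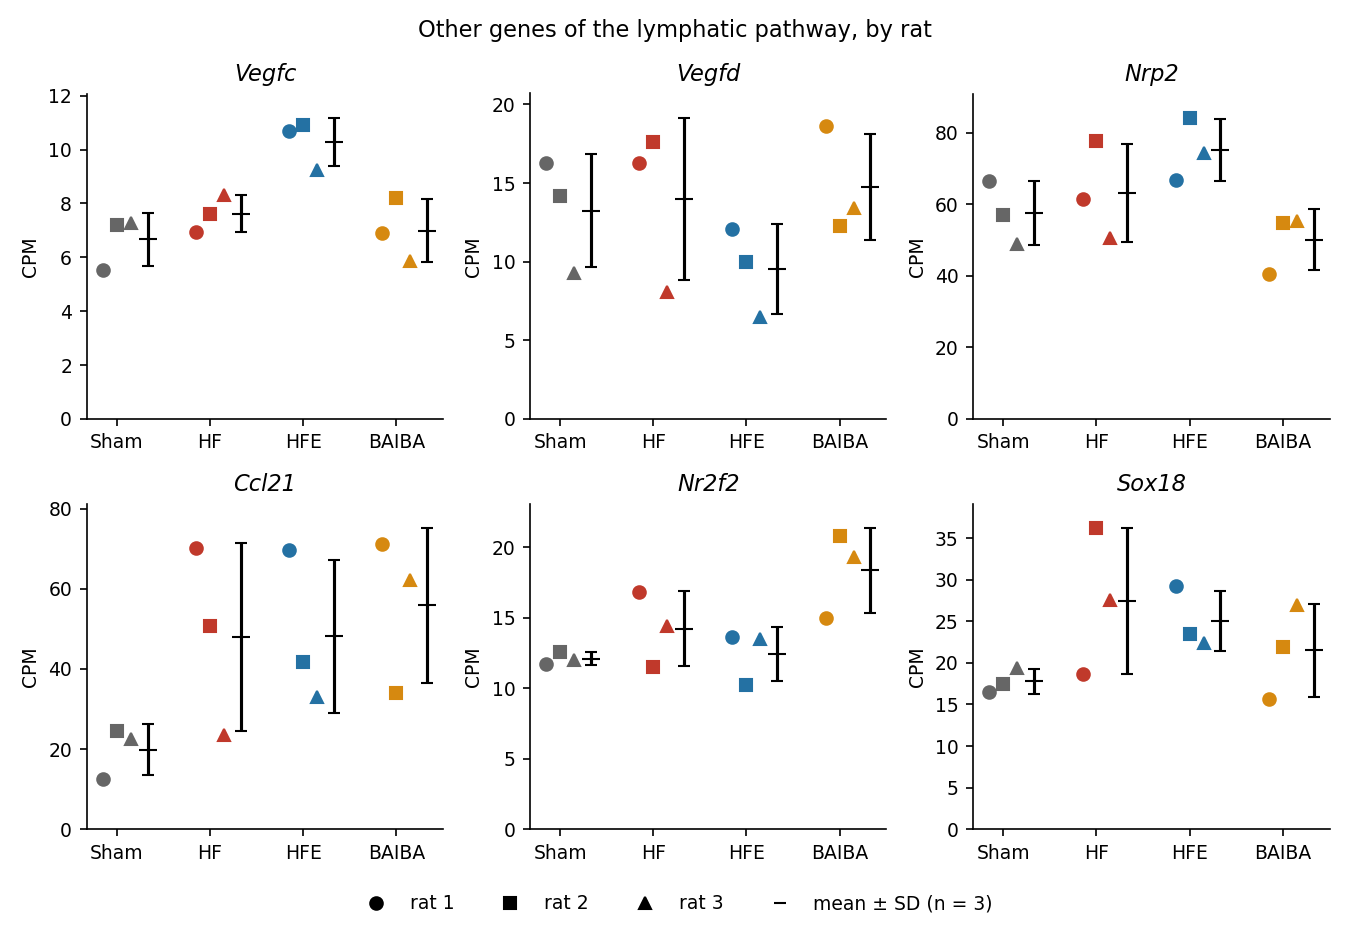
Level (vertical axis, CPM) of 6 further lymphatic genes in each rat, with the group mean and SD (n = 3). Vegfc is above 9 CPM in the 3 HFE rats only, Nrp2 is higher in HFE than in BAIBA rats without overlap, and Ccl21 is at 12.6 to 24.6 CPM in Sham and up to 71.2 CPM in BAIBA rats.

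The receptors of reelin were also measured. Vldlr was at 54.9 to 85.9 CPM in the 12 rats and Lrp8 at 1.07 to 4.7 CPM, while Dab1, the adaptor of the pathway in neurons, had 1 to 9 counts per rat. By edgeR, neither Vldlr nor Lrp8 was called in any comparison, and Dab1 did not pass the filter. Lrp8 was at 4 ± 0.57 CPM in Sham and 1.73 ± 0.717 CPM in HFE rats, which did not overlap (log2 fold change -1.20, SE 0.32, adjusted p = 0.296 by edgeR).

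The genes whose log2 CPM was most like each of the 6 over the 12 rats, out of 14214 searched, differed between them. Nearest to Mmrn1 were Adgrg3 (r = 0.917), Slc52a3 (r = 0.89) and Evi5 (r = 0.888), and nearest to Reln were Tusc3 (r = 0.923), Lime1 (r = 0.911) and Lrtomt (r = 0.891). Nearest to Lyve1 were Dse (r = 0.954), Aebp1 (r = 0.951) and Serping1 (r = 0.944), which stayed at r = 0.874 to 0.929 without BAIBA rat 1. For Pdpn they were Xrcc5 (r = 0.942), Anxa1 (r = 0.939) and Myrf (r = 0.932), and their r was 0.666 to 0.696 without that rat. Prox1 was most like Gfpt1 (r = 0.929), Zfp786 (r = 0.926) and Rasgrp3 (r = 0.886), and Flt4 was most like Cnn3 (r = 0.866), AABR07005779.6 (r = 0.865) and Tmem204 (r = 0.85). With the mean of the 6 standardised genes, Nxn had the highest r (0.927) and Ccl21 the second (r = 0.902, rho = 0.86, and r = 0.811 after group means were removed). That mean was -0.97, -0.54 and -0.30 SD units in the Sham rats, 0.38, 0.24 and 0.04 in the HF, 0.18, 0.03 and -0.14 in the HFE, and 0.50, -0.12 and 0.71 in the BAIBA rats.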

How the data were processed

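Left ventricular RNA of 12 rats was analysed, 3 per group, grouped by the labels. The authors trimmed the reads, used HISAT2 for alignment, StringTie for assembly of unannotated genes and featureCounts for reads per gene. The deposited counts are not normalized, and the authors computed the deposited FPKM values from counts and gene length. The submitters' processing notes name the mouse build mm9 although the gene identifiers are those of rat, so the build behind the counts is unclear. Versions, and whether counting used the strand, are not given in the sources used here. Depth was 14812541 to 19732588 counts per rat.

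Counts were tested with edgeR 4.0.16 in R 4.3.3 (TMM, filterByExpr, robust quasi-likelihood fits) over all genes in each of 6 pairs of groups. Genes were called at an adjusted p (Benjamini-Hochberg) below 0.05 with a change over 1 on the log2 scale. The SE of an edgeR log2 fold change was derived as its absolute value divided by the square root of the quasi-likelihood F statistic. For the 6 genes it is part of the description, and no test is read from it. CPM used TMM factors over 12 rats, and correlations were computed on log2 CPM (prior count 2). The procedure was tested on simulated data. Alternatives were DESeq2 1.42.0, other normalizations and filters, a fit of all rats, limma 3.58.1 on log2 FPKM, a replicate block, no limit on the fold change and each rat left out. Leaving BAIBA rat 1 out of the list counts and of the DESeq2 and blocked calls, and the block for marker lists, were added after seeing the data. The labels do not say what the replicate numbers share, but in BAIBA against HFE same-numbered rats deviated together (r between 0.138 and 0.261 for the 3 pairs), so blocked values are given there where they change a call or a count of calls by over 1.5 times. Values not named as blocked are unpaired.

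The 6 genes and all lists were chosen with earlier results of these data known. The rule for naming genes from the lists took those called, the 3 highest in mean FPKM and the 2 with the largest change without overlap in each comparison. Not every gene that met it is named, and some others are, such as Emcn and Ryr2. A list of 4 atrial markers was also examined, with sums from 12.3 CPM (BAIBA rat 2) to 538 CPM (HF rat 3). DESeq2 called 1 of these 4 in BAIBA against HF (0.139% of all genes) and 2 in BAIBA against Sham (0.443%). Genes most alike were the top 3 by Pearson r for each of the 6, and the top 10 for their mean. No protein sequences were used here.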

Additional observations from a re-analysis of the deposited data

How the results depend on the processing

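By edgeR, 0 of the 6 genes and 0 of the wider list were called in each comparison, also under RLE or library-size scaling, other filters, a fit of all 12 rats, limma on log2 FPKM, no limit on the fold change and each rat left out (0 to 0). DESeq2 called 1 of the 6 in HF against Sham (Mmrn1), 1 in BAIBA against HFE and 1 in BAIBA against Sham. It called 0.152%, 1.11% and 0.443% of all genes in these comparisons, in the same order. Of the wider list, DESeq2 called 1 in BAIBA against Sham and 1 in HFE against Sham (0.461% of all genes). The replicate block called 1 of the 6 in BAIBA against HFE, where it called 0.216% of all genes. The 6 genes were chosen on these values, so their calls are no test. The DESeq2 calls in BAIBA against HFE and BAIBA against Sham were both Lyve1. They were lost without BAIBA rat 1, where the edgeR log2 fold changes of Lyve1 were 0.92 and 0.65. DESeq2 then called Mmrn1 in BAIBA against Sham, and the block kept Lyve1 in BAIBA against HFE. The block also called Cd163 and Msln in BAIBA against HFE and none of the wider list. Msln had at most 1 count in each HFE rat. In the other 5 comparisons same-numbered rats did not all deviate together. The cause was not tested. The mean r over the 15 pairs (0.06) was -0.03 with group means removed, 0.09 on log2(FPKM + 0.1), and 0.01 to 0.13 with each rat left out. Of the alternative log2 fold changes of the 6 genes, 535 stayed within 1 SD between rats and 5 did not, which were Pdpn without BAIBA rat 1 in its 3 comparisons, Lyve1 without that rat against Sham (0.65) and Reln in HFE against HF with limma on log2(FPKM + 1) (-0.24). Small values changed sign with a rat left out, such as Lyve1 in HF against Sham (-0.20 to 0.29). With 3 rats per group, small differences were not detectable. By edgeR, log2 fold changes over 1 also went uncalled, such as those of Ccl21 and Tbx1 in BAIBA against Sham.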
